A study of Mus musculus with 12 samples.

Results

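The alpha-actinins and the tropomodulins are actin-binding families with 4 genes each in the mouse, and their RNA was followed across a cross of an siRNA with rapamycin in C2C12 cells, a mouse myoblast line. The 8 genes are Actn1, Actn2, Actn3, Actn4, Tmod1, Tmod2, Tmod3 and Tmod4, out of 38481 genes with a listed transcript. They were taken by family membership, except that Actn3 and Tmod1 were selected on measured values, namely a rapamycin response that differed between the siRNAs. For these 2 genes the differences between single groups are therefore given as values without a test. Tests are limited to the siRNA effect averaged over both treatments and the rapamycin effect averaged over both siRNAs. As estimates, these averages are orthogonal to the difference that chose the genes. Their tests use the same estimate of spread as that difference, however. The choice may thus have favoured small standard errors, and the p-values of these averages may be too small. The cells grew in medium with 10% serum and received an siRNA against Renilla luciferase, the control called Luc here, or against Crebl2, which encodes a leucine-zipper protein of the CREB family. After 3 days of siRNA they received 20 nM rapamycin, an inhibitor of mTOR complex 1, or its solvent ethanol for 12 h. The 4 groups, Luc siRNA with ethanol, Luc siRNA with rapamycin, Crebl2 siRNA with ethanol and Crebl2 siRNA with rapamycin, held 3 libraries of total RNA each. The labels name a single Crebl2 siRNA, so loss of Crebl2 and any other effect of that siRNA cannot be told apart. No label ties the libraries of a group to separate cultures, and the p-values therefore reflect library-to-library spread alone, possibly technical.

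Alpha-actinins are antiparallel dimers of the spectrin superfamily that cross-link actin filaments. Each chain carries an actin-binding domain at one end, a rod of spectrin repeats and a pair of EF-hand motifs at the other end. Actn2 and Actn3 are the muscle forms, which anchor thin filaments at the Z-disc of the sarcomere, with Actn3 in fast fibres. Actn1 and Actn4 are the non-muscle forms, which sit in stress fibres and at focal adhesions. Tropomodulins cap the slow-growing, pointed end of actin filaments coated with tropomyosin. Tmod1 is found in striated muscle, red cells and lens, Tmod2 mainly in neurons, Tmod3 in most cells and Tmod4 in skeletal muscle.

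Library totals ranged from 33404087 to 42891015 counts, and no library stood apart from its group. Crebl2, the target of the siRNA, was at 23.8, 25.3 and 26.2 CPM, a TMM-scaled relative abundance per library, in the 3 Luc libraries in ethanol and at 4.87, 7.41 and 6.02 in the Crebl2 libraries. In rapamycin the Luc libraries held 40.0, 36.4 and 36.3 CPM and the Crebl2 libraries 10.7, 8.97 and 9.49, so the label of every library was matched by its Crebl2 level. The summed level of 6 myoblast markers was 2130 to 2260 CPM in Luc ethanol and 1490 to 1540 in Luc rapamycin libraries. It was 2120 to 2370 in Crebl2 ethanol and 1840 to 1910 in Crebl2 rapamycin libraries. Most of it was Cdh15 and Chrna1, while Myod1 and Myf5 were on average not lowest in Luc rapamycin. The summed level of 8 markers of differentiating muscle, among them Myog, was 493 to 642 CPM in Luc ethanol and 181 to 218 in Luc rapamycin. It was 61.4 to 74.6 in Crebl2 ethanol and 38.3 to 48.5 in Crebl2 rapamycin libraries. The 4 smooth muscle markers summed to 2990 to 3290, 4650 to 4800, 3670 to 3980 and 6720 to 7090 CPM in the same order, nearly all of it Acta2, which myoblasts also express. The 6 fibroblast markers summed to 48.3 to 51.2 CPM in Luc ethanol, 33.5 to 39.5 in Luc rapamycin, 11.3 to 16.1 in Crebl2 ethanol and 8.97 to 12.5 in Crebl2 rapamycin libraries. Endothelial and neuron and glia markers summed to at most 0.335 CPM in any library, leukocyte markers to at most 3.3 and adipocyte markers to at most 1.62. In bulk RNA, fewer cells of a kind and less RNA per cell cannot be told apart, and the part of these marker shifts in the results was not tested.

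Of the 8 genes, 5 had enough counts to be tested, namely Actn1, Actn3, Actn4, Tmod1 and Tmod3. The deposited counts leave out reads shared by several listed transcripts, so a level per length was set over the exonic bases that belong to a single listed transcript, called countable bases here. In the Luc ethanol group Actn4 was the most abundant, at 286 ± 14.8 CPM per countable kilobase (SD, n = 3). Actn3 followed at 62.2 ± 4.01, Actn1 at 50.6 ± 1.10, Tmod3 at 47.8 ± 0.481 and Tmod1 at 4.40 ± 0.406 CPM per countable kilobase. The libraries of neighbours in this order did not overlap. Each of the 2 listed Actn1 transcripts holds only part of the 1202 countable bases, 1136 and 66. The Actn1 level may therefore be too low, and its place against Actn3 in the ethanol groups is not settled. In Luc rapamycin the order became Actn4 at 295, Actn1 at 69.8, Tmod3 at 51.3, Actn3 at 27.4 and Tmod1 at 1.43 CPM per countable kilobase, again without overlap. With the Crebl2 siRNA in ethanol the level per countable kilobase was 63.4 ± 4.14 for Actn3 and 56.8 ± 4.64 for Actn1, and their libraries overlapped. Actn1, Actn3 and Tmod3 stood at 80.4, 55.4 and 48.7 CPM per countable kilobase with the Crebl2 siRNA in rapamycin. The muscle form Actn3 thus made up 21.8 units per 100 units of Actn4 in Luc ethanol, 9.29 in Luc rapamycin, 19.5 in Crebl2 ethanol and 16.6 in Crebl2 rapamycin, as ratios of level per countable kilobase. Tmod1 per 100 units of Tmod3 was 8.33 to 10.2 in Luc ethanol libraries, 2.63 to 2.93 in Luc rapamycin, 3.17 to 3.84 in Crebl2 ethanol and 2.21 to 2.73 in Crebl2 rapamycin libraries.

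**Figure D1:**
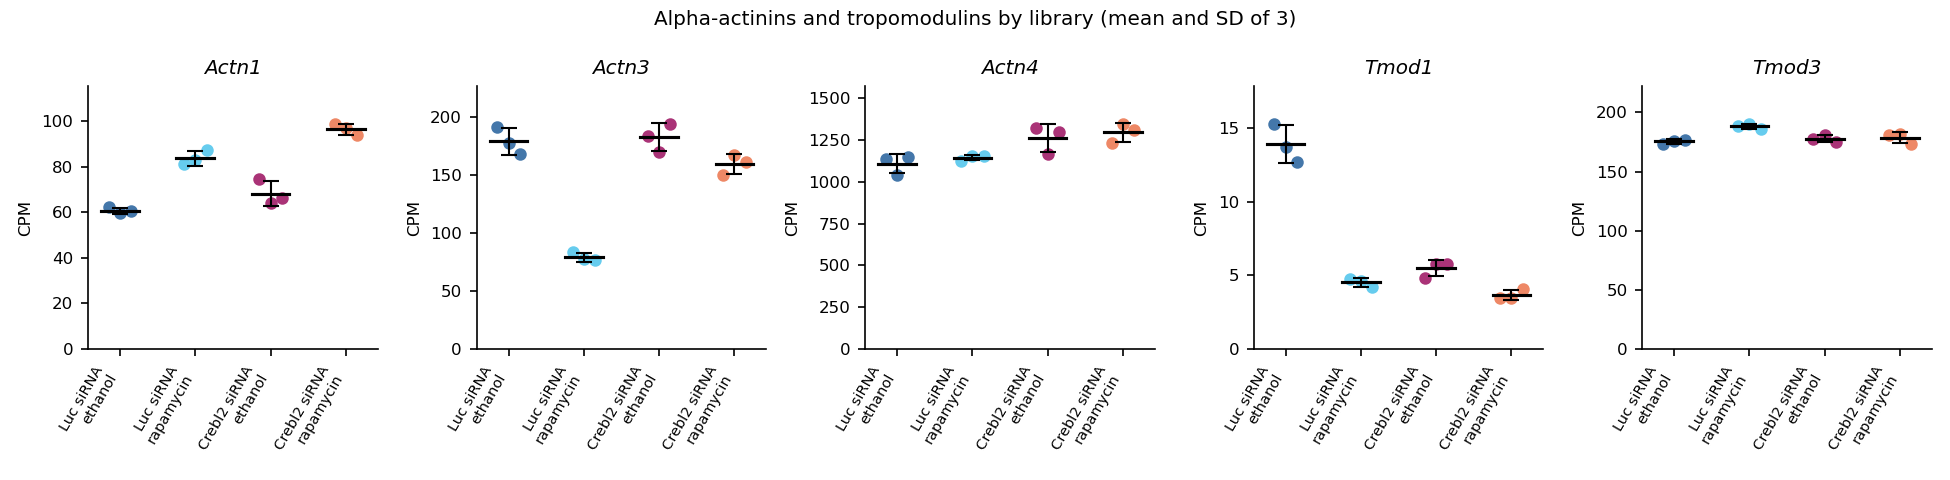
Level of the 5 tested genes in each library (vertical axis, CPM from 0) in the 4 groups (horizontal axis); points are libraries, the thick line is the group mean and the bar is 1 SD of 3. Actn3 is low in Luc rapamycin alone (79.1 CPM on average), Tmod1 is high in Luc ethanol alone (13.9 CPM on average), Actn1 is higher in both rapamycin groups and Tmod3 lies between 174 and 190.0 CPM.

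Actn3, the fast-fibre Z-disc actinin (GRCm38 chr19:4861216-4877909, minus strand, 1 listed transcript, all 2887 exonic bases countable), stood high in 3 of the groups and low in one. Its level was 192, 178 and 169 CPM in Luc ethanol, 83.4, 77.4 and 76.6 in Luc rapamycin, 184, 170 and 194 in Crebl2 ethanol and 150, 168 and 162 in Crebl2 rapamycin libraries. The 3 Luc rapamycin libraries lay below the other 9, and the ethanol groups of the siRNAs overlapped. On the log2 scale rapamycin against ethanol was -1.18 (SE 0.0625) with the Luc siRNA, which is 2.27-fold lower, and -0.20 (SE 0.0611) with the Crebl2 siRNA, which is 1.14-fold lower. The difference of these responses, the value that chose the gene, was 0.99 (SE 0.0871), and the Crebl2 siRNA against the Luc siRNA was 0.03 (SE 0.0609) in ethanol and 1.01 (SE 0.0625) in rapamycin. Averaged over both treatments, Actn3 was higher with the Crebl2 siRNA by 0.52 (SE 0.0435, edgeR adjusted p = 1.18e-07). That average joins 0.03 in ethanol with 1.01 in rapamycin, so it does not show an siRNA effect in ethanol. The average rapamycin effect was -0.69 (SE 0.0436, edgeR adjusted p = 2.13e-09). The low Luc rapamycin group enters both averages, and 48.7% of all tested genes passed in the average siRNA effect. In the average rapamycin effect 55.2% passed. The summed myoblast markers given above were also lowest in Luc rapamycin, though Myod1 and Myf5 among them were not. The summed differentiating muscle markers had another order. They were 181 to 218 CPM in Luc rapamycin, but 61.4 to 74.6 in Crebl2 ethanol and 38.3 to 48.5 in Crebl2 rapamycin libraries. The part of either marker set in the Actn3 values was not tested.

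Tmod1, the pointed-end cap of striated muscle thin filaments (chr4:46038935-46116032, plus strand, 1 listed transcript, all 3158 exonic bases countable on its own strand), had the opposite layout, high in one group and low in 3. The libraries held 15.3, 13.7 and 12.7 CPM in Luc ethanol, 4.77, 4.59 and 4.20 in Luc rapamycin, 4.84, 5.79 and 5.78 in Crebl2 ethanol and 3.48, 3.45 and 4.08 in Crebl2 rapamycin. Each Luc ethanol library exceeded all other libraries, and the Crebl2 rapamycin libraries were the lowest. Rapamycin against ethanol was -1.62 on the log2 scale (SE 0.108, 3.07-fold lower) with the Luc siRNA and -0.58 (SE 0.116, 1.49-fold lower) with the Crebl2 siRNA. The Crebl2 siRNA against the Luc siRNA was -1.34 (SE 0.106, 2.54-fold lower) in ethanol and -0.30 (SE 0.117, 1.23-fold lower) in rapamycin, so the difference of responses that chose the gene was 1.04 (SE 0.158). With the Crebl2 siRNA Tmod1 fell by 0.82 averaged over treatments (SE 0.0789, edgeR adjusted p = 5.09e-07). Averaged over siRNAs it fell by 1.10 in rapamycin (SE 0.0789, edgeR adjusted p = 9.22e-09). The high Luc ethanol group enters both averages. Of all tested genes, 48.7% passed in the average siRNA effect and 55.2% in the average rapamycin effect. The summed differentiating muscle markers given above were likewise highest in Luc ethanol and lowest in Crebl2 rapamycin. Between these, the markers were higher in Luc rapamycin than in Crebl2 ethanol, while Tmod1 was lower. The part of the markers in the Tmod1 values was not tested. Without a stated strand setting, 59.2% of the Tmod1 bases are free of any other listed transcript on either strand. Its antisense neighbour Tstd2 held at most 6 counts in a library. Only 27.5% of the Tstd2 bases are countable on its own strand and 1.1% on either strand. Its low count therefore cannot show how much it is expressed.

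**Figure D2:**
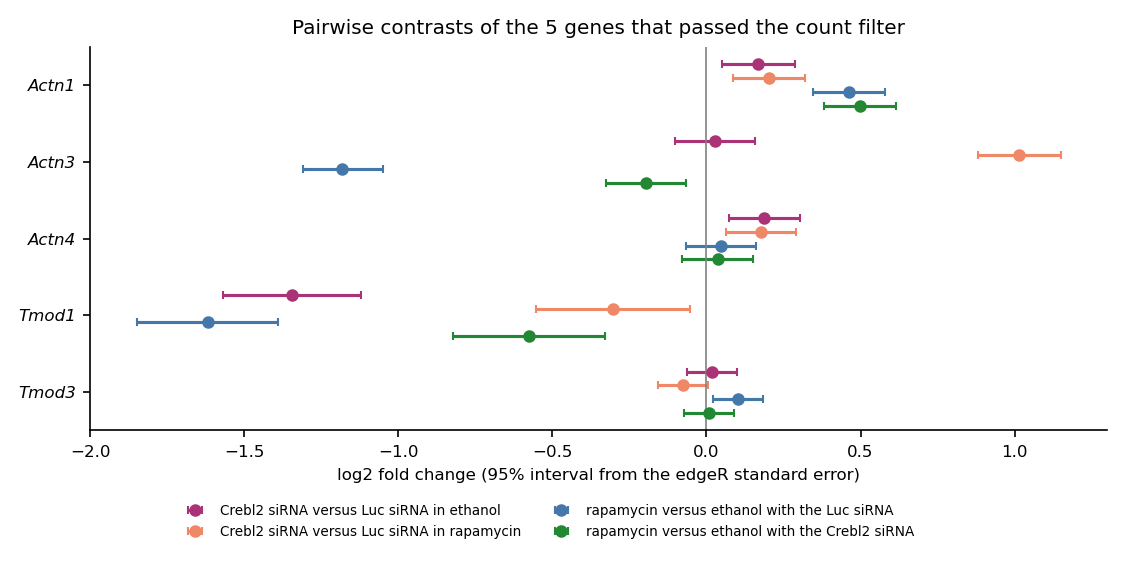
Log2 fold changes (horizontal axis) of the 5 tested genes in the 4 comparisons between single groups, with 95% intervals from the edgeR standard error. For Actn3 and Tmod1 the points are a description only; Actn1 lies right of 0 in all 4, Actn4 right of 0 for the siRNA and near 0 for rapamycin, and Tmod3 near 0 throughout.

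Actn1, the non-muscle actinin of focal adhesions and stress fibres (chr12:80167547-80260371, minus strand, 2 listed transcripts), was raised by rapamycin with either siRNA. Its libraries held 62.2, 59.6 and 60.7 CPM in Luc ethanol, 81.1, 83.1 and 87.5 in Luc rapamycin, 74.7, 64.1 and 66.2 in Crebl2 ethanol and 98.8, 97.1 and 93.9 in Crebl2 rapamycin. No library of a rapamycin group overlapped the ethanol group of the same siRNA, and no Crebl2 library overlapped the Luc group of the same treatment. Among Luc libraries rapamycin raised it by 0.46 on the log2 scale (SE 0.0552, edgeR adjusted p = 6.09e-06), and among Crebl2 libraries by 0.50 (SE 0.055, edgeR adjusted p = 2.03e-06). These responses differed by 0.04, with a 95% interval of -0.13 to 0.20 (edgeR adjusted p = 0.887). The Crebl2 siRNA raised Actn1 by 0.17 in ethanol (SE 0.0554, edgeR adjusted p = 0.0254) and by 0.20 in rapamycin (SE 0.0546, edgeR adjusted p = 0.00951). The ethanol call was lost when any library other than Luc ethanol 1 or Crebl2 ethanol 2 or 3 was left out, with estimates from 0.10 to 0.17 and edgeR adjusted p from 0.0581 to 0.142.

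Actn1 is spliced with either of a mutually exclusive pair of exons in the EF-hand region, and this choice is what sets its listed transcripts apart in the coding sequence. The listed long form carries an 81-base exon (GRCm38 chr12:80170686-80170766, exon 19 of 21), known from the calcium-sensitive non-muscle form. The other listed form carries a 66-base exon in its place (chr12:80170183-80170248), of the kind used by the muscle actinins. The coding sequences are shown 5′ to 3′ from GRCm38, each on the minus strand, because they show which family members share each kind of exon. Capitals mark bases that differ from the Actn1 exon of the same length.
Actn1, 81 bases: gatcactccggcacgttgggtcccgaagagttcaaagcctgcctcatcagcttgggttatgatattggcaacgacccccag
Actn4, 81 bases: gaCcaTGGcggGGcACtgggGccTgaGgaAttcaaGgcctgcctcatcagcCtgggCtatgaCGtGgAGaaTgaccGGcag
Actn1, 66 bases: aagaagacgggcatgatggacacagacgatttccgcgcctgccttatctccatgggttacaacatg
Actn2, 66 bases: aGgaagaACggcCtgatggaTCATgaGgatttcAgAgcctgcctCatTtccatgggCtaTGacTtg
Actn3, 66 bases: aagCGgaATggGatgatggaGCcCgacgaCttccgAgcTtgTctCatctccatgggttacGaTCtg
The Actn4 exon (chr7:28895432-28895512) differed from the 81-base Actn1 exon at 23 bases, an identity of 71.6%. The Actn2 exon (chr13:12272699-12272764) differed from the 66-base Actn1 exon at 17 bases and the Actn3 exon (chr19:4862170-4862235) at 16 bases, identities of 74.2% and 75.8%.

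The counts of Actn1 came from 1202 of its 3800 exonic bases. Of these, 1136 belong to the 81-base form alone, 81 of them coding and 1055 untranslated, and 66 are the exon of the other form. The 66-base form therefore had few counts, 35, 33 and 37 in Luc ethanol, 53, 68 and 58 in Luc rapamycin, 43, 42 and 75 in Crebl2 ethanol and 85, 79 and 82 in Crebl2 rapamycin libraries. Its CPM in each Crebl2 rapamycin library exceeded that in all other libraries. In a fit of all 14536 tested transcripts, rapamycin raised the 66-base form by 0.85 on the log2 scale among Luc libraries (SE 0.192, edgeR adjusted p = 0.00237) and by 0.75 among Crebl2 libraries (SE 0.177, edgeR adjusted p = 0.00261). The Crebl2 siRNA raised it by 0.65 in ethanol (SE 0.195, edgeR adjusted p = 0.0161) and by 0.56 in rapamycin (SE 0.174, edgeR adjusted p = 0.0239). Counts given to the 81-base form rose in the same 4 comparisons, by 0.45, 0.49, 0.16 and 0.20 in that order. Their edgeR adjusted p were 1.17e-05, 3.66e-06, 0.0413 and 0.0143. The share of Actn1 counts on the 66-base form was 1.46% ± 0.191 (SD, n = 3) in Luc ethanol, 1.90% ± 0.139 in Luc rapamycin, 2.05% ± 0.628 in Crebl2 ethanol and 2.43% ± 0.196 in Crebl2 rapamycin. It was higher with the Crebl2 siRNA by 0.561 percentage points averaged within treatments (2-sided exact permutation within treatments, p = 0.01, adjusted p = 0.02 over 2 tests chosen after the counts were seen). The Luc and Crebl2 libraries overlapped in ethanol, and without Crebl2 ethanol library 3 the difference in ethanol was 0.259 points against 0.591 with it. The rapamycin difference of 0.414 points did not pass (exact permutation within siRNAs, p = 0.055, adjusted p = 0.055). It passed without Luc ethanol library 3 (0.468 points, exact permutation p = 0.045) or without Crebl2 ethanol library 3 (0.58 points, exact permutation p = 0.005). Without Crebl2 ethanol library 1 it was 0.268 points (exact permutation p = 0.155), with the difference among Crebl2 libraries at 0.0929 points against 0.384 with that library. The other 9 omissions left it at 0.358 to 0.451 points, none of which passed. These are shares of counts over unequal countable lengths and not shares of transcripts. The 1055 untranslated bases do not tell the exons apart, since they count for the 81-base form only because the other listed transcript is shorter. An mRNA with the 66-base exon and longer ends would add counts there, so the share need not measure exon choice.

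**Figure D3:**
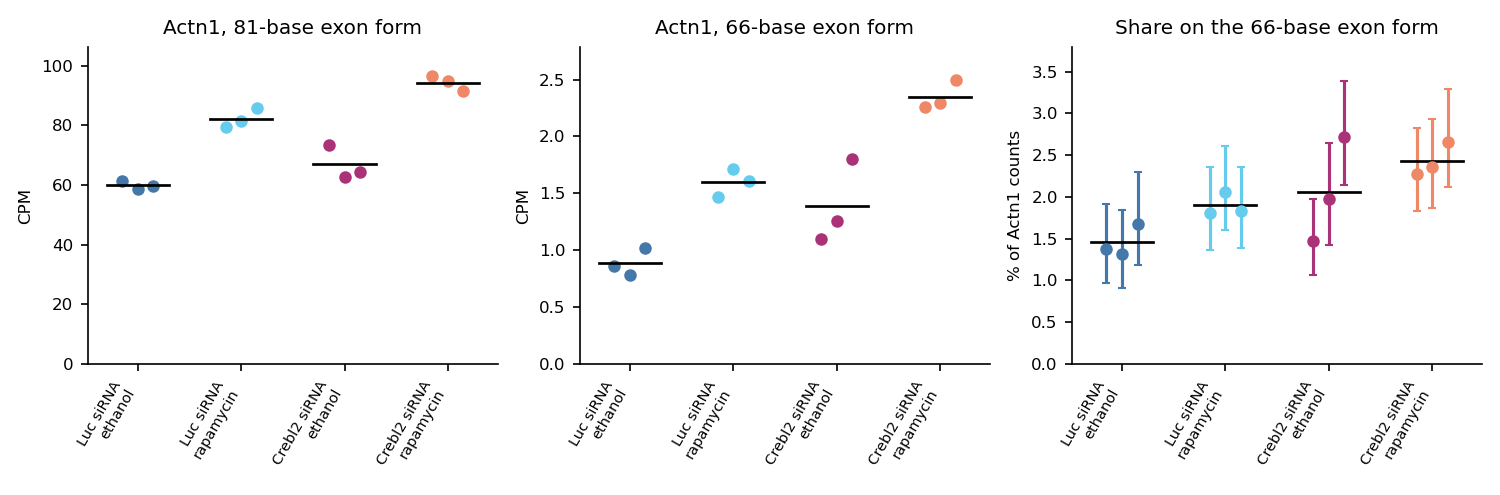
Level of the 81-base and 66-base forms of Actn1 (vertical axes, CPM from 0) and the share of Actn1 counts on the 66-base form (vertical axis, percent) in each library of the 4 groups; lines are group means and bars on the share are exact Clopper-Pearson 95% intervals that cover counting error only. Both transcripts are highest in Crebl2 rapamycin, and the mean share runs from 1.46% to 2.43%.

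Actn4, the other non-muscle actinin (chr7:28893248-28962340, minus strand, 1 listed transcript, all 3877 exonic bases countable), responded to the siRNA and not detectably to rapamycin. It stood at 1137, 1042 and 1145 CPM in Luc ethanol, 1126, 1155 and 1153 in Luc rapamycin, 1319, 1167 and 1300 in Crebl2 ethanol and 1230, 1344 and 1310 in Crebl2 rapamycin libraries. Every Crebl2 library exceeded every Luc library of either treatment, and the treatments overlapped within each siRNA. The Crebl2 siRNA raised Actn4 by 0.19 on the log2 scale in ethanol (SE 0.054, edgeR adjusted p = 0.0122) and by 0.18 in rapamycin (SE 0.054, edgeR adjusted p = 0.0198). In ethanol the call was lost without Luc ethanol library 2 (0.15, edgeR adjusted p = 0.0625) or Crebl2 ethanol library 1 (0.16, edgeR adjusted p = 0.0551). The rapamycin difference was 0.05 with the Luc siRNA (95% interval -0.07 to 0.16, edgeR adjusted p = 0.523) and 0.04 with the Crebl2 siRNA (edgeR adjusted p = 0.623), and these differed by -0.01 (95% interval -0.17 to 0.15).

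Tmod3, the broadly expressed tropomodulin (chr9:75497707-75559657, minus strand, 1 listed transcript, all 3667 exonic bases countable), was the steadiest of the 5, with a within-group coefficient of variation of 1.55%. It held 174, 176 and 177 CPM in Luc ethanol, 189, 190.0 and 186 in Luc rapamycin, 178, 181 and 175 in Crebl2 ethanol and 181, 182 and 174 in Crebl2 rapamycin libraries. The Luc rapamycin libraries were the highest, and the other 3 groups overlapped. Among Luc libraries rapamycin raised it by 0.10 on the log2 scale (SE 0.0377, edgeR adjusted p = 0.0417). That call was lost when any single library outside the Crebl2 ethanol group was left out, with estimates from 0.07 to 0.11 and edgeR adjusted p from 0.0707 to 0.301. With the replicate number as a block the edgeR adjusted p was 0.071. The call was also lost with RLE in place of TMM scaling (edgeR adjusted p = 0.053), with no count filter (edgeR adjusted p = 0.579) and with only the groups compared (edgeR adjusted p = 0.0763). The rapamycin difference was 0.01 with the Crebl2 siRNA (edgeR adjusted p = 0.882), the siRNA difference was 0.02 in ethanol (95% interval -0.06 to 0.10, edgeR adjusted p = 0.754) and -0.08 in rapamycin (edgeR adjusted p = 0.142), and the responses differed by -0.09 (95% interval -0.21 to 0.02, edgeR adjusted p = 0.456).

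Over Actn1, Actn4 and Tmod3, the Crebl2 siRNA passed the test in ethanol for 2 of 3 genes, both higher, where 38.4% of all 13247 tested genes passed in either direction and 21.4% were higher. In rapamycin it again passed for 2 of 3, both higher, against 33.1% of all tested genes and 16.3% higher. Rapamycin passed for 2 of 3 genes with the Luc siRNA, both higher, against 41.1% of all genes and 19.5% higher, and for 1 of 3 with the Crebl2 siRNA, against 45.3% and 19.7% higher. The interaction passed for 0 of 3, against 1.20% of all genes, and it passed for 0 of 3 also at an unadjusted p below 0.05 and with DESeq2. With 3 genes these shares cannot be set apart from the background. The median size of the log2 siRNA difference over all tested genes was 0.233 in ethanol and 0.213 in rapamycin. Each of the 3 genes lay below it in both treatments, so their siRNA differences were small among tested genes. The 3 libraries of each group did not overlap for 46.9% and 46.0% of all tested genes between the siRNAs, in ethanol and in rapamycin, and for 50.4% and 53.6% between the treatments, with the Luc and with the Crebl2 siRNA.

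Actn2, Tmod2 and Tmod4 did not pass the count filter, and their levels cannot be read from these counts. Actn2, the Z-disc actinin of heart and all skeletal fibres (chr13:12269426-12340760, minus strand, 3 listed transcripts), had a count of 0 in all 12 libraries. Only 37 bases belong to its main coding transcript alone, and 681 belong to a retained-intron transcript. Tmod2, the neuronal tropomodulin (chr9:75565621-75611325, minus strand, 3 listed transcripts), also had a count of 0 in all 12, over 157 countable of 10025 exonic bases. Tmod4 of skeletal muscle (chr3:95124476-95129209, plus strand, 2 listed transcripts) had 28 countable of 1265 exonic bases. Its counts were 1, 1 and 2 in Luc ethanol, 1, 1 and 2 in Luc rapamycin, 1, 0 and 0 in Crebl2 ethanol and 0 in each Crebl2 rapamycin library. A count of 0 allows up to 3 counts, or 0.0713 to 0.0912 CPM depending on the library, over those few bases only.

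Genes that work beside these families were described in 4 lists, whose counts are to be read against the share of all tested genes that passed. With the Crebl2 siRNA 21.4% of all tested genes rose and 17.0% fell in ethanol, and 16.3% rose and 16.8% fell in rapamycin. With rapamycin 19.5% rose and 21.6% fell among Luc libraries, and 19.7% rose and 25.6% fell among Crebl2 libraries. The Z-disc partner list held 17 tested of 23 genes, of which 2 rose and 7 fell with the Crebl2 siRNA in ethanol, with a median log2 difference of -0.27 against 0.01 over all tested genes. In rapamycin the siRNA raised 2 and lowered 4, with a median of 0.05. For the siRNA in ethanol, the count that rose was 0 without Luc ethanol library 3. It was 1 without Luc ethanol 2 or without Crebl2 ethanol 1 or 3. Myoz2, a calcineurin-binding Z-disc protein, fell by 3.34 (SE 0.277, edgeR adjusted p = 2.68e-07) from 1.97 to 0.187 CPM. Synpo2, an actin-bundling protein of the Z-disc, fell by 0.73 (SE 0.0926, edgeR adjusted p = 1.92e-05). In M21 Synpo2 has no base of its own, so its value is uncertain. Rapamycin with the Luc siRNA raised 4 and lowered 6 of the 17, with a median of -0.20 against 0.02 over all tested genes. Among Crebl2 libraries it raised 4 and lowered 4, with a median of -0.01. With rapamycin and the Luc siRNA, Pdlim3, an actinin-binding LIM protein, fell by 1.39 (edgeR adjusted p = 1.2e-07). In the same comparison the giant spring protein gene Ttn fell by 1.96 (edgeR adjusted p = 4.39e-07). Xirp1, an actin-binding repeat protein, fell there by 1.10 (edgeR adjusted p = 6.78e-07). The countable share was 40.8% for Pdlim3 and 7.96% for Ttn.

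The thin filament and pointed end list held 14 tested of 21 genes, of which 5 rose and 5 fell with the Crebl2 siRNA in ethanol (median -0.10) and 1 rose and 8 fell with rapamycin and the Luc siRNA (median -0.25), where 19.5% of all tested genes rose and 21.6% fell. In rapamycin the siRNA raised 6 and lowered 5 (median 0.09), and among Crebl2 libraries rapamycin raised 3 and lowered 4 (median -0.06). Leiomodins are relatives of the tropomodulins that bind the same filament end and start new filaments. Lmod2 was at 6.26 CPM on average in Luc ethanol, 2.62 in Luc rapamycin, 1.45 in Crebl2 ethanol and 0.739 in Crebl2 rapamycin. It fell by 2.12 with the siRNA in ethanol (SE 0.157, edgeR adjusted p = 8.68e-08). With rapamycin and the Luc siRNA it fell by 1.26 (SE 0.147, edgeR adjusted p = 4.95e-06). Lmod3, the other striated muscle leiomodin, fell by 1.84 (SE 0.127, edgeR adjusted p = 4.15e-08) and by 0.99 (SE 0.121, edgeR adjusted p = 8.13e-06). Tnnc1, the calcium-binding troponin of slow and cardiac muscle, fell by 1.91 (SE 0.114, edgeR adjusted p = 8.57e-09) and by 0.90 (SE 0.108, edgeR adjusted p = 6.91e-06). Lmod1, the smooth muscle leiomodin, went the other way and is named after its values were seen: it rose by 0.85 (SE 0.0984, edgeR adjusted p = 7.74e-06) and by 0.41 (SE 0.1, edgeR adjusted p = 0.00394), from 8.21 to 14.8 and to 10.9 CPM.

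The adhesion and stress fibre list, the setting of Actn1 and Actn4, held 22 tested of 23 genes, of which 9 rose and 2 fell with the Crebl2 siRNA in ethanol (median 0.13), and 10 rose and 0 fell with rapamycin and the Luc siRNA (median 0.21). The shares of all tested genes that rose were 21.4% and 19.5%. In rapamycin the siRNA raised 12 and lowered 2, where 16.3% of all tested genes rose, and with the Crebl2 siRNA rapamycin raised 12 and lowered 0, where 19.7% rose. Without Crebl2 ethanol library 1 the 9 became 5, and without Luc rapamycin library 3 the 10 became 6. The 2 that fell became 1 without Luc ethanol 2 or without Crebl2 ethanol 2 or 3. Tagln, a calponin-family actin-binding protein, was at 96.6 CPM in Luc ethanol, 209 in Luc rapamycin, 225 in Crebl2 ethanol and 608 in Crebl2 rapamycin. It rose by 1.22 with the siRNA in ethanol (SE 0.0573, edgeR adjusted p = 9.35e-10) and by 1.12 with rapamycin and the Luc siRNA (SE 0.0572, edgeR adjusted p = 6.09e-10). Pdlim7, a LIM protein of actin bundles, rose by 0.69 (edgeR adjusted p = 2.57e-07) and by 0.41 (edgeR adjusted p = 2.97e-05). The calponin Cnn1 rose by 1.14 with the siRNA (edgeR adjusted p = 1.17e-06) and Cnn2 by 0.63 with rapamycin (edgeR adjusted p = 9.86e-09). Acta2, nearly all of the smooth muscle marker sum, was likewise lowest in Luc ethanol and highest in Crebl2 rapamycin. Of the other markers in that set Lmod1 rose, while Smtn fell from 0.766 CPM in Luc ethanol to 0.152 in Crebl2 rapamycin. Myh11 averaged at most 0.452 CPM in a group. The part of these markers was not tested.

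Of the spectrin membrane skeleton list, in which Tmod1 caps short filaments in red cells, 12 of 21 genes were tested. With the Crebl2 siRNA in ethanol 2 rose and 1 fell (median -0.05), and with rapamycin and the Luc siRNA 2 rose and 2 fell (median -0.06), no larger a share than the 38.4% and 41.1% of all tested genes that passed in either direction. In rapamycin the siRNA raised 2 and lowered 0 (median -0.04), and among Crebl2 libraries rapamycin raised 2 and lowered 1 (median -0.01). The 2 that rose with the siRNA in ethanol became 1 without Luc ethanol 1, Crebl2 ethanol 1 or any rapamycin library. The 2 that rose with rapamycin and the Luc siRNA became 1 without Luc ethanol 1 or Luc rapamycin 1 or 3. The 2 that fell in that comparison became 0 without Luc ethanol 2. They became 1 without Luc ethanol 3, Luc rapamycin 1 or 3 or Crebl2 ethanol 1. Add2, an adducin that caps the other filament end, rose by 1.46 with the siRNA in ethanol (SE 0.118, edgeR adjusted p = 2.11e-07), from 4.20 to 11.6 CPM. Sptbn1, a non-red-cell beta-spectrin, fell by 0.38 with the siRNA in ethanol (SE 0.096, edgeR adjusted p = 0.00557). It rose by 0.55 with rapamycin and the Luc siRNA (SE 0.0946, edgeR adjusted p = 0.000229). The ankyrin gene Ank3 rose by 0.32 with the siRNA (edgeR adjusted p = 0.0366) and fell by 0.32 with rapamycin (edgeR adjusted p = 0.0392), and Utrn, encoding the dystrophin relative utrophin, rose by 0.31 with rapamycin (edgeR adjusted p = 0.0165).

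**Figure D4:**
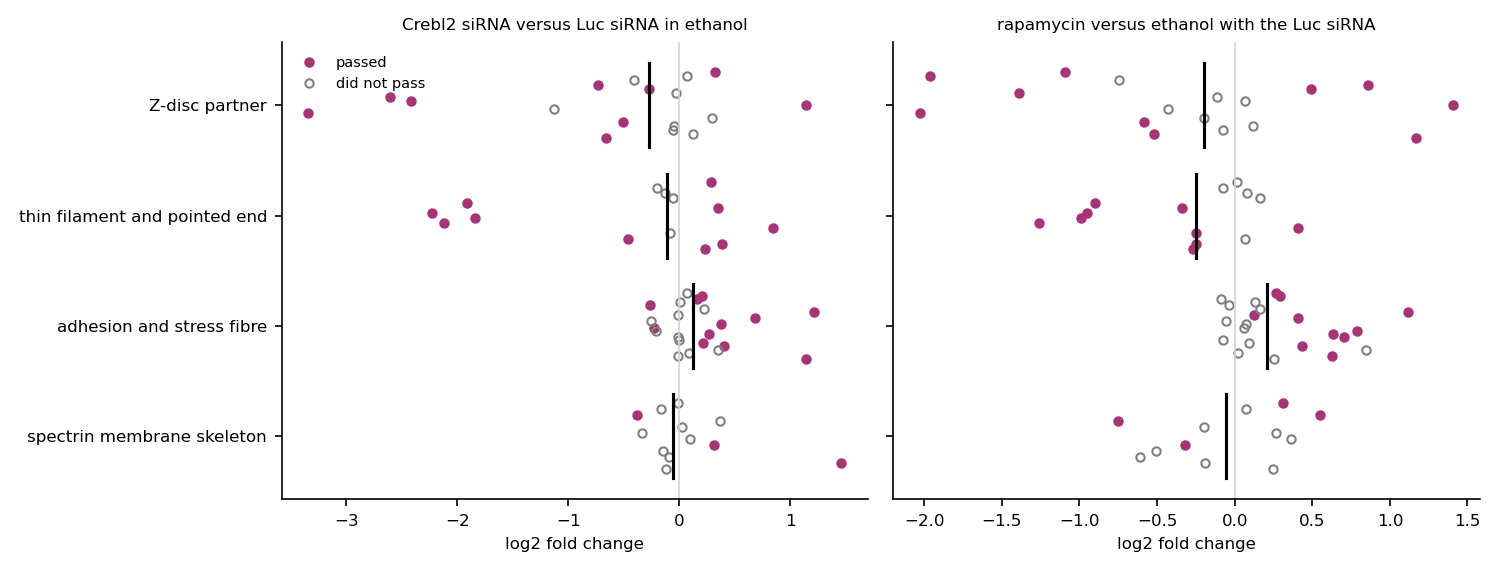
Log2 fold changes (horizontal axes) of the tested genes of the 4 lists (rows) for the Crebl2 siRNA in ethanol and for rapamycin with the Luc siRNA; filled points passed the edgeR test, open points did not, and the vertical bar is the list median. The adhesion and stress fibre median lies right of 0 in both panels (0.13 and 0.21) and the Z-disc partner median left of 0 (-0.27 and -0.20).

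The genes whose pattern lay nearest to each tested gene were found among 10612 named protein-coding genes, by the root mean square (RMS) difference of log2 CPM, centred per gene, over the 12 libraries. For Tmod1 they were Mamdc2 at 0.203, the Notch ligand gene Dll1 at 0.209 and C1qtnf3 at 0.212, where the median candidate lay at 0.763. Mamdc2 averaged 82.0 CPM in Luc ethanol, 26.6 in Luc rapamycin, 32.3 in Crebl2 ethanol and 16.3 in Crebl2 rapamycin, and Dll1 averaged 12.7, 4.18, 4.72 and 2.51 in the same order. For Actn3 they were Inka2, an inhibitor of the kinase Pak4, at 0.153, the secreted protease gene Adamts1 at 0.182 and Pidd1, encoding a death-domain protein, at 0.189, with a median candidate at 0.552. Adamts1 averaged 168, 87.5, 222 and 175 CPM and was lowest in Luc rapamycin, as Actn3 was. Actn1 was nearest to Plxnb1, Tnfrsf1b and Plekhm3 at 0.0686 to 0.071, with a median candidate at 0.366. Actn4 was nearest to Acaa2, Lrwd1 and Tmem206 at 0.0361 to 0.0379, with a median candidate at 0.269, and Tmod3 to Numb, Scaf8 and Sav1 at 0.0341 to 0.0373, with a median candidate at 0.248. For Tmod3 the nearest distances are about the size of its own RMS deviation from its mean, 0.0435, so flat genes in general lie near it.

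**Figure D5:**
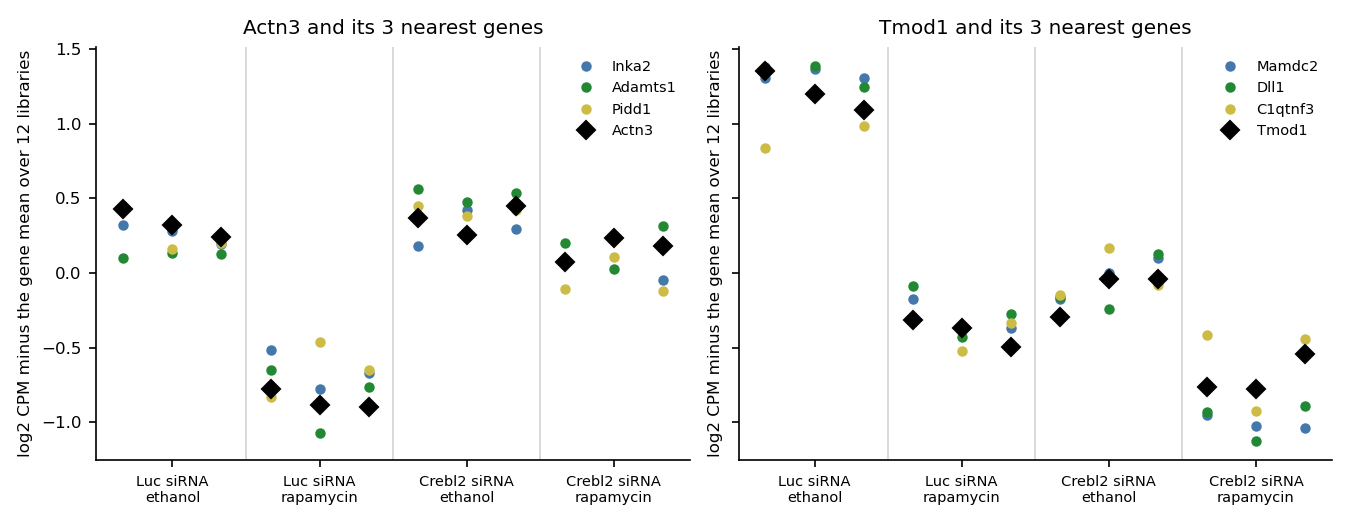
Log2 CPM of Actn3 and Tmod1 (diamonds) and their 3 nearest genes (circles), each minus the mean of that gene over 12 libraries (vertical axis), by library in the 4 groups (horizontal axis). Actn3 and its neighbours are low in Luc rapamycin, and Tmod1 and its neighbours are high in Luc ethanol. The neighbours were chosen for nearness over these same 12 libraries, so the shared layout follows from that choice. The RMS differences of the neighbours are 0.153 to 0.189 for Actn3 and 0.203 to 0.212 for Tmod1.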

How the data were processed

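RNA from 12 libraries was analysed. The deposited files hold raw counts of reads per transcript for 58611 Ensembl identifiers, without normalization by the authors. Libraries came from a stranded total RNA kit, per the labels' protocols. Trim Galore, TopHat, HTSeq and the builds mm9 and GRCm38 are named in the submitters' processing notes, while versions, annotation, strand setting and the treatment of shared reads are not given in the sources used here. GENCODE M21 on GRCm38 named 58264 identifiers (the 347 others held 0.038% of reads), and counts were summed to 38481 genes, since the planned designs assumed genes. Of 8480 protein-coding transcripts with no base of their own, 99.3% had no read, against 32.0% of 31661 with such bases, so shared reads are missing. After the edgeR filter by group (minimum count 10, 13247 genes kept), TMM scaling and a quasi-likelihood F test followed (edgeR 4.0.16, R 4.3.3). One model with a mean per group held all libraries. Benjamini-Hochberg adjustment ran over all tested genes, with calls at 0.05. The script was checked on simulated data. DESeq2 1.42.0 was an alternative. Named genes were the 8 family members, Crebl2, the 3 nearest genes of each tested member and the 3 smallest p of each list in 2 comparisons. A gene that this rule names in the Z-disc partner list is not reported here. The members and lists were chosen with earlier results of these data known.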

Additional observations from a re-analysis of the deposited data

Results flagged for a closer look

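In the 4 lists, the rapamycin response differed between the siRNAs for 3 of 65 tested genes in the edgeR interaction test, which 1.20% of all tested genes passed. Tnnc1 averaged 78.1 CPM in Luc ethanol, 41.9 in Luc rapamycin, 20.7 in Crebl2 ethanol and 21.8 in Crebl2 rapamycin, an interaction of 0.97 on the log2 scale (SE 0.16, edgeR adjusted p = 0.00657). Tpm2, a tropomyosin gene with 8.69% countable bases, averaged 13.2, 13.9, 12.0 and 21.6 CPM, an interaction of 0.76 (SE 0.144, edgeR adjusted p = 0.0159). Cnn2 averaged 358, 552, 356 and 657 CPM, an interaction of 0.26 (SE 0.0585, edgeR adjusted p = 0.0457).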

How the results depend on the processing

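The interaction passed for 159 genes, and for 415 with no count filter, 391 with DESeq2, 91 with the replicate block and 85 to 172 with 1 library left out. In the other 6 comparisons the number of genes that passed stayed within 1.5 times under every alternative run. No sign of pairing by replicate number was seen. Same-numbered libraries correlated at -0.292 to 0.11 in their deviations from the group means, over 0.1 in 1 of 12 pairs. These correlations do not show whether libraries shared batches in another way. The block ended the Tmod3 call for rapamycin with the Luc siRNA and no other call among Actn1, Actn4 and Tmod3. Of the 629 recomputed log2 differences of the tested family members, 27 lost a call and 2 gained one, and 27 others changed sign. None of the 27 that changed sign was called in either fit, and each had a reported size of at most 0.04. The Actn4 interaction (-0.01) became 0.0129 with RLE scaling, 0.0129 with DESeq2 and 0.0467 with no count filter, and lay at -0.0653 to 0.0835 with 1 library left out. Tmod3 for the siRNA in ethanol (0.02) became -0.0097 with no count filter and -0.0123 with only the groups compared, and lay at -0.00706 to 0.0315 with 1 library left out. The Actn1 interaction (0.04) was -0.10 for the 66-base form alone and -0.00881 to 0.12 with 1 library left out. For rapamycin with the Crebl2 siRNA, leaving out 1 library gave -0.018 to 0.10 for Actn4 and -0.00544 to 0.0614 for Tmod3. Actn3 for the siRNA in ethanol (0.03, not tested) became -0.00202 with only the groups compared and was as low as -0.0141 with 1 library left out. The Actn1 call for the siRNA in ethanol was also lost with no count filter (0.14, edgeR adjusted p = 0.0743) and with only the groups compared (0.14, edgeR adjusted p = 0.109), where Actn4 was lost as well (0.16, edgeR adjusted p = 0.0585). The average rapamycin effect on Tmod3 was called at a minimum count of 50 (0.07, edgeR adjusted p = 0.0198) and by DESeq2 (0.06, adjusted p = 0.0411). The cause of these shifts was not tested. The average effects on Actn3 and Tmod1 were called under each alternative run. Of 288 recomputed list counts, 36 moved by over 1.5 times, and the adhesion and stress fibre genes that rose with the siRNA in ethanol were 5 with only the groups compared. Few countable bases limit Actn2, Tmod2, Tmod4 and the 66-base form of Actn1.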
